A study of Mus musculus with 12 samples.

Results

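The genes described here encode the protein part of the mitochondrial ribosome in mouse CD8+ T cells. They were taken as every protein-coding gene whose symbol starts with Mrpl or Mrps followed by a number and whose counts summed to at least 120 over the 12 RNA-seq libraries. All 78 protein-coding genes with such a symbol met the count minimum, with summed counts of 11783 to 122945, out of 55536 annotated genes. A further 5 genes with such symbols are processed pseudogenes and were left out. Of the 78 genes, 49 carry the Mrpl and 29 the Mrps prefix, and they lie on 17 chromosomes. The prefix follows the subunit for most but not all of them. Mrps18a and Mrps30 belong to the large subunit, and Mrps36 is now known as a component of the 2-oxoglutarate dehydrogenase complex and not of the ribosome. That leaves 51 large-subunit and 26 small-subunit genes.

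The mitochondrial ribosome translates the few proteins that the mitochondrial genome encodes, all of them membrane subunits of the respiratory chain or of ATP synthase. Its RNAs come from the mitochondrial genome, but each of its proteins is encoded in the nucleus, made in the cytosol and imported. Part of these proteins descend from the bacterial ribosome and part exist only in mitochondrial ribosomes. T cells leaving quiescence are known to enlarge their mitochondria and to need mitochondrial translation for proliferation and effector function.

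OT-I T cells carry a transgenic receptor for the ovalbumin peptide SIINFEKL, and the donor line is labelled OT-1 Tg C57BL/6J. Per the study's methods, the donors lacked Rag1 or Rag2, so that the transgenic receptor was their only receptor, and animals of both sexes and mixed ages were used without an age or sex per sample. The Ag group (5 libraries) holds OT-I cells that were transferred into wild-type C57BL/6J mice, which then received the peptide with control rat IgG. The Ag+Costim group (5 libraries) received the peptide with agonist antibodies to OX40 (CD134) and 41BB (CD137), a pair of costimulatory receptors of the tumour necrosis factor receptor family. Cells of both groups were sorted from spleen and lymph nodes after 4 days per the labels, while the study's methods give a slightly shorter time. The Naive group (2 libraries) holds CD8+ T cells of OT-I mice that were neither transferred nor immunised, so antigen, transfer and residence in a host with a full immune system cannot be told apart in any comparison with Naive. The labels do not name the animals behind the libraries, so p-values measure the spread between these libraries.

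Library totals ran from 24006053 to 49294934 counts, with Ag replicate 4 the lowest. The 6 T cell markers summed to 10139 and 10807 CPM (counts scaled to the TMM-normalised library size) in the Naive libraries, 7511 to 10119 CPM in Ag and 3815 to 5249 CPM in Ag+Costim. Among them Trac, the constant part of the receptor alpha chain, stood at 3855 and 4006, 1322 to 2136 and 660.4 to 953 CPM in the same order, and Cd8a at 874 and 963, 962 to 1224 and 485 to 577 CPM. Cd3d stood at 895 and 1012, 1371 to 1718 and 406 to 631 CPM, and Cd3g at 1057 and 1215, 1319 to 1997 and 417 to 655 CPM. Cd3d and Cd3g were thus higher in Ag than in Naive, while Cd3e and Cd8b1, like Trac, were lower. Cd4 did not exceed 2.39 CPM. The 6 erythroid markers summed to 168 and 2314 CPM in the Naive libraries, 588 to 6726 CPM in Ag and 14.0 to 211 CPM in Ag+Costim. The 5 proliferation markers summed to 34.0 and 35.7, 426 to 921 and 1779 to 2243 CPM in the same order, and the 4 B cell markers to 30.6 and 33.2, 101 to 154 and 21.7 to 54.8 CPM. The 5 myeloid markers summed to 27.0 and 55.9 CPM in Naive, 56.0 to 174 CPM in Ag and 82.8 to 145 CPM in Ag+Costim. The part of these differences in the results that follow was not tested, and in bulk RNA a change in the share of cells and a change in RNA per cell cannot be told apart.

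The start sites of these genes were searched for a few short sequence elements. RefSeq promoter windows (250 bases before to 50 bases after a start, build GRCm38.p6) were matched by symbol for 69 of the 78 genes. The core element of ETS factors such as GABP (CCGGAAG on either strand) was present in 26 of the 69 (37.7%), against 9.93% of 27025 genes with a window. YY1 (AAGATGGC) matched in 12 (17.4% against 3.19%), NRF1 (GCGCATGCG) in 7 (10.1% against 1.95%), the E-box (CACGTG) in 5 (7.25% against 8.09%) and the Sp1 box (GGGCGG) in 34 (49.3% against 38.2%). At least 1 of these motifs was present in 53 of the 69. The share of all genes with at least 1 of them is not given, so this count has no background. Among 60 cytosolic ribosomal protein genes with a window, ETS was present in 41.7%, Sp1 in 60% and the E-box in 10%. YY1 was present in 8.33% of them and NRF1 in 5%. Each motif was searched on both strands, and a match describes letters, not a bound site. The 4 windows below belong to the genes with the largest separate changes among those that have 1 window each, namely Mrps6 (rise from Naive to Ag), Mrps2 and Mrps21 (rise and fall from Ag to Ag+Costim), and to Mrpl53, which is named in both comparisons. Capitals mark any of these motifs, and the strand is that of the gene.
Mrps6, chr16:92058086-92058385, plus strand: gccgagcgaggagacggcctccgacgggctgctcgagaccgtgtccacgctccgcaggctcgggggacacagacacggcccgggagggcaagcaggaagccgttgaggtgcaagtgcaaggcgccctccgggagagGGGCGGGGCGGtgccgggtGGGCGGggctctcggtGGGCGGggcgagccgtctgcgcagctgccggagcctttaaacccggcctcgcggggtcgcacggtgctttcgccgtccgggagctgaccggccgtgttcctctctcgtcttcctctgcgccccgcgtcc
Mrpl53, chr6:83108858-83109157, plus strand: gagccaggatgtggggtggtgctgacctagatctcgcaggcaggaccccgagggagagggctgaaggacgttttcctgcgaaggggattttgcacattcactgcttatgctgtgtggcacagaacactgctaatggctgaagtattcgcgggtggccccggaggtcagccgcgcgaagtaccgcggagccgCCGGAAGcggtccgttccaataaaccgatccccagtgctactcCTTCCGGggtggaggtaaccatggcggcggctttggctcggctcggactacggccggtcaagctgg
Mrps21, chr3:95871465-95871764, minus strand: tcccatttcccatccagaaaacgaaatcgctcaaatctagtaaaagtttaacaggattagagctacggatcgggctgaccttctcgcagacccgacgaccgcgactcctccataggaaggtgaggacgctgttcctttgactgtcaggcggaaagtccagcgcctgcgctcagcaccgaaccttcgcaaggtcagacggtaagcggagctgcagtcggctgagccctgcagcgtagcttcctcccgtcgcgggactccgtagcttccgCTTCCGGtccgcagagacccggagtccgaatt
Mrps2, chr2:28467816-28468115, plus strand: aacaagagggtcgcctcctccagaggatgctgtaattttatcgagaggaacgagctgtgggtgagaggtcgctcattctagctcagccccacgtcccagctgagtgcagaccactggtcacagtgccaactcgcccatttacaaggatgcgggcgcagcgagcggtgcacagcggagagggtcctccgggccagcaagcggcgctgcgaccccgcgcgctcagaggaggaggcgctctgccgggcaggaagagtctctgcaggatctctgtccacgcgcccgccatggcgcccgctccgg
The Mrps6 window carries 4 Sp1 boxes, the first pair of which share a base, Mrpl53 carries 2 ETS elements on opposite strands, Mrps21 carries 1 ETS element, and the letters searched are not in the Mrps2 window.

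Transcript levels differed 33.3-fold between the 78 genes. On the length-adjusted scale (FPKM, the mean of 12 libraries), the median gene stood at 63.5 and the middle of the distribution ran from 34.9 to 103. Mrps21 (234 FPKM), Mrpl33 (234 FPKM) and Mrpl42 (223 FPKM) were highest, the first 2 with bacterial counterparts and the last a mitochondria-specific protein of the large subunit. Mrpl47 (7.01 FPKM), Mrps25 (8.78 FPKM) and Mrpl1 (12.99 FPKM) were lowest. Each ribosome is known to hold a single copy of most of its proteins. Within the lowest gene the groups overlapped, with 7.71 ± 1.64 FPKM in Naive (SD, n = 2), 6.83 ± 1.21 in Ag (n = 5) and 6.92 ± 0.492 in Ag+Costim (n = 5).

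The comparison of Ag with Naive sets cells that were transferred and given antigen beside cells that had neither. Most of the set was higher in Ag. By edgeR's quasi-likelihood test over 18817 genes, 63 of the 78 rose and 1 fell at an adjusted p below 0.05, while 24.2% of all genes tested rose and 22.5% fell. The median log2 fold change was 0.64 for the 78 genes and 0.02 for all genes, with a range of -0.62 to 1.88. The Ag libraries lay entirely above the Naive libraries for 66 of the 78 genes, which held for 27.2% of all genes, and entirely below them for 2 (29.2% of all genes).

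**Figure D1:**
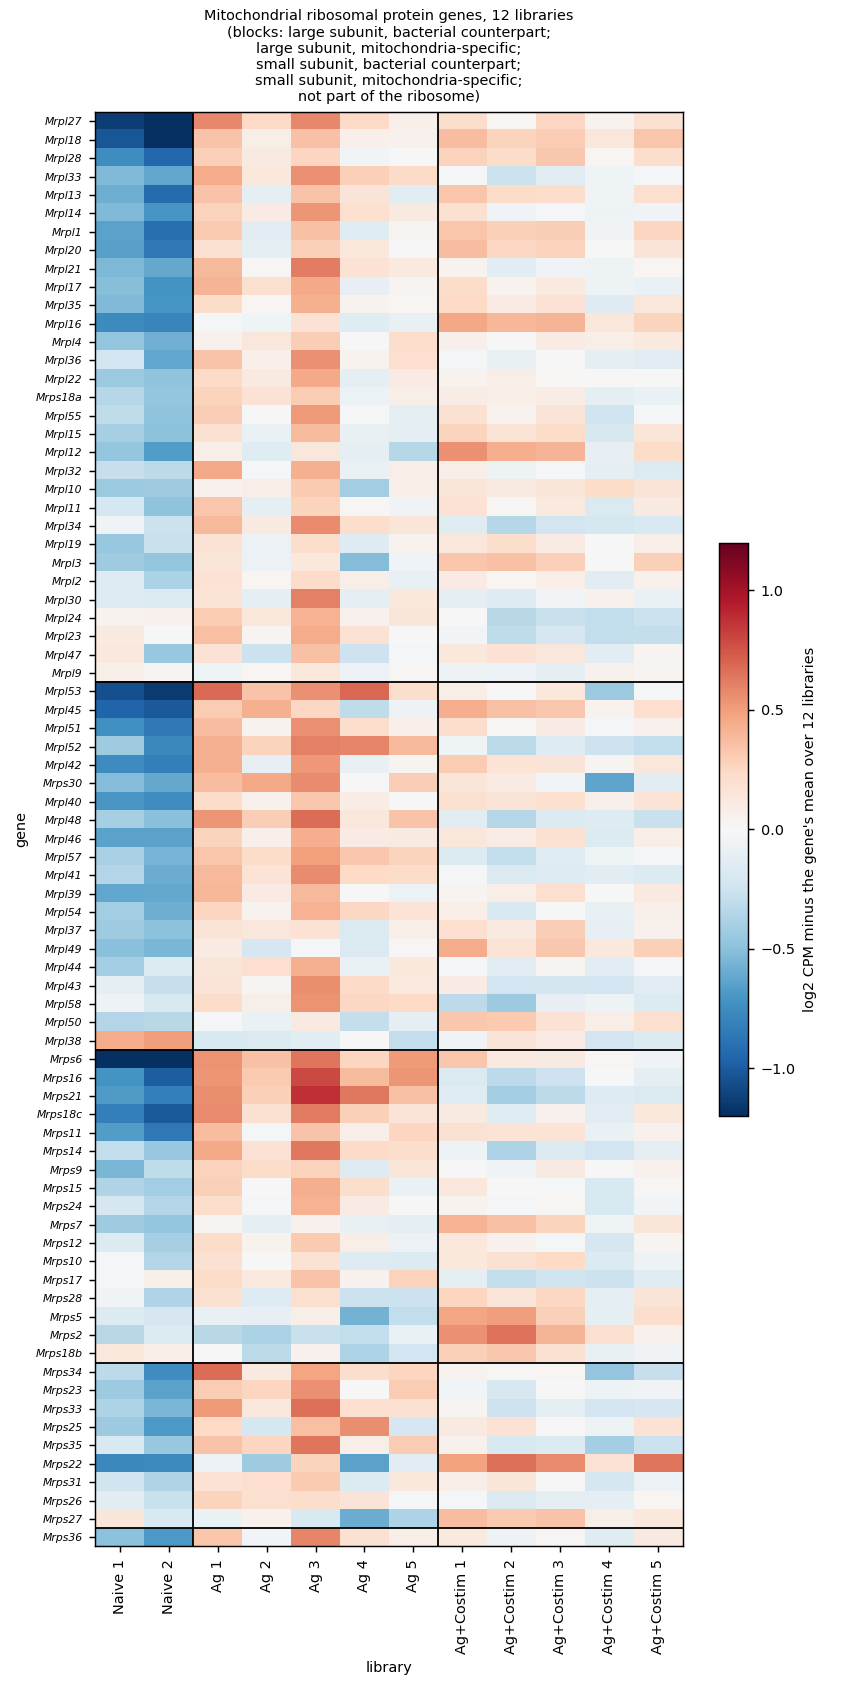
Each row is 1 of the 78 genes and each column 1 of the 12 libraries, coloured by log2 CPM minus the gene's mean over the libraries (red higher, blue lower) and grouped by structural class in the order given in the title. The 2 Naive columns are blue for most rows, with Mrpl38 the clearest exception, and the Ag columns are redder than the Ag+Costim columns for rows such as Mrps21 and Mrps16 and paler for Mrps2 and Mrps22.

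The summed level of the 78 genes showed the same order. It was 4651 and 4271 CPM in the Naive libraries and 7590, 6545, 8267, 6530 and 6599 CPM in the Ag libraries. No Ag library reached down to the Naive range. As a share of all counts the set made up 0.481% to 0.520% in Naive, 0.644% to 0.777% in Ag and 0.566% to 0.669% in Ag+Costim.

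All structural classes took part. Of large-subunit proteins with a bacterial counterpart, 25 of 31 rose (median log2 fold change 0.56), and of the mitochondria-specific ones 18 of 20 rose and 1 fell (median 0.80). In the small subunit 11 of 17 proteins with a bacterial counterpart rose (median 0.43), as did 8 of 9 mitochondria-specific ones (median 0.65). All 5 stalk proteins, which recruit the GTPase translation factors, rose (median 0.50), but with a correction for transcript length, described further on, Mrpl10 (0.22, adjusted p = 0.184), Mrpl11 (0.13, adjusted p = 0.438) and Mrpl12 (0.27, adjusted p = 0.212) lost the call. Of the 8 central protuberance proteins, the crown of the large subunit, 7 rose and 1 fell, and of 6 proteins around the exit tunnel 3 rose (median 0.40). Mrps36 rose as well, with a log2 fold change of 0.83 ± 0.16 (SE) and an adjusted p of 0.000726.

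**Figure D2:**
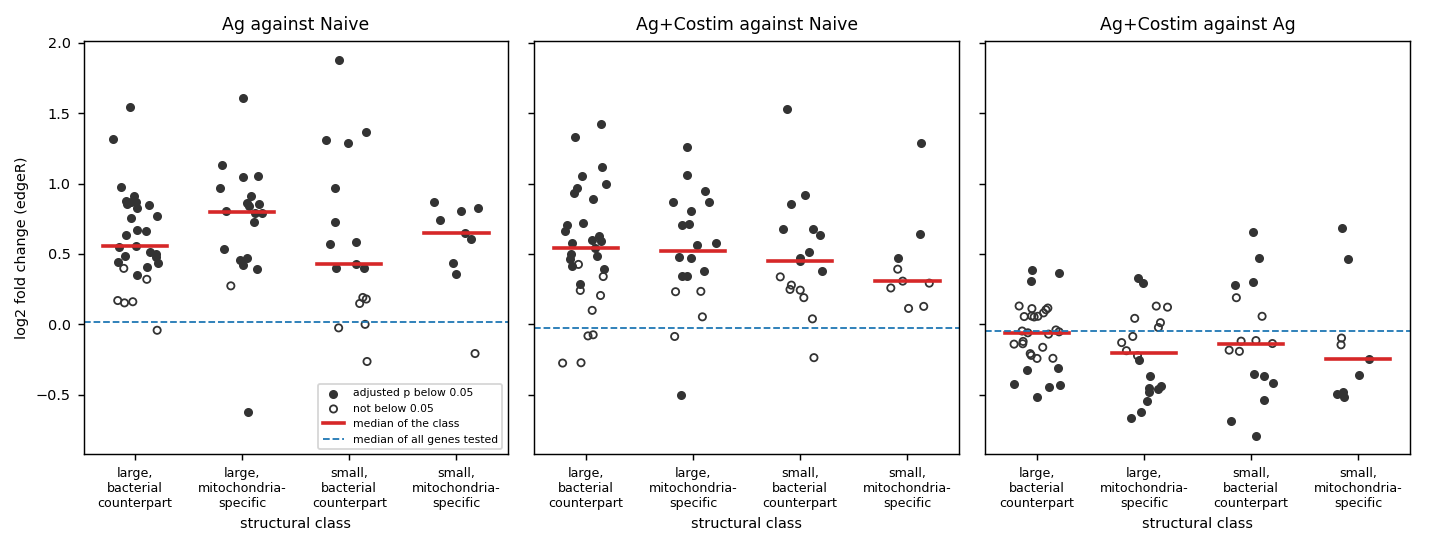
Points are genes, placed by structural class, with the edgeR log2 fold change on the y axis in 3 comparisons. Filled points passed an adjusted p of 0.05, red bars are class medians and dashed lines the median of all genes tested. In both comparisons with Naive every class median lies above the dashed line, and in Ag+Costim against Ag every class median lies on or below it.

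The largest rise was that of Mrps6, a platform protein of the small subunit (ENSMUSG00000039680.10, chr16:92058270-92112227, plus strand, mm10). Mrps6 stood at 23.2 and 25.2 CPM in Naive, at 94.0, 82.1, 101, 77.1 and 91.8 CPM in Ag and at 81.1, 70.0, 69.6, 65.3 and 62.6 CPM in Ag+Costim. Every stimulated library was far above both Naive libraries, and Ag and Ag+Costim overlapped at 77.1 to 81.1 CPM. The fold change from Naive to Ag was 3.69 (log2 1.88 ± 0.14, adjusted p = 3.5e-07). Mrps6 shares its strand and part of its locus with the transporter gene Slc5a3, and reads from the shared part cannot be assigned with certainty.

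Mrpl53, a mitochondria-specific protein of the stalk region, came next (ENSMUSG00000030037.9, chr6:83109040-83109939, plus strand). It overlaps Gm42688 on the same and Ccdc142os on the opposite strand. Its levels were 13.7 and 12.9 CPM in Naive, 45.9, 36.2, 41.8, 46.1 and 33.2 CPM in Ag and 30.0, 28.4, 31.2, 21.1 and 28.4 CPM in Ag+Costim. The 3 groups did not overlap. From Naive to Ag it rose 3.05-fold (log2 1.61 ± 0.18, adjusted p = 1.15e-05).

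Mrpl27 and Mrpl18 also rose, and between Ag and Ag+Costim neither passed the test as fitted. Mrpl27, a protein next to the peptidyl transferase centre, stood at 40.7 and 37.4 CPM in Naive, at 133, 105, 133, 105 and 93.1 CPM in Ag and at 103, 90.5, 106, 92.1 and 101 CPM in Ag+Costim. Mrpl18, a central protuberance protein also known to be made as a cytosolic form under stress, stood at 113 and 96.0 CPM in Naive, at 291, 241, 294, 240 and 238 CPM in Ag and at 298, 277, 284, 253 and 289 CPM in Ag+Costim. For both, stimulated libraries were clear of Naive and the stimulated groups overlapped each other. The fold changes from Naive to Ag were 2.91 for Mrpl27 (log2 1.54 ± 0.15, adjusted p = 3.61e-06) and 2.497 for Mrpl18 (log2 1.32 ± 0.13, adjusted p = 3.15e-06). From Ag to Ag+Costim the log2 fold changes were -0.21 ± 0.10 for Mrpl27 and 0.10 ± 0.09 for Mrpl18. With upper-quartile scaling edgeR called Mrpl27 lower (-0.41, adjusted p = 0.00602). With the length correction it called Mrpl18 higher (0.30, adjusted p = 0.00755). Mrpl18 overlaps the chaperonin gene Tcp1 on the opposite strand, and Mrpl27 overlaps Eme1. The library kit did not record strand.

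Only Mrpl38, a mitochondria-specific protein of the central protuberance, fell (ENSMUSG00000020775.13, chr11:116131817-116138868, minus strand). It stood at 69.1 and 72.0 CPM in Naive and at 44.8, 45.2, 46.5, 51.1 and 41.6 CPM in Ag, without overlap (log2 fold change -0.62 ± 0.12, adjusted p = 0.000734). Ag+Costim libraries held 49.5, 56.6, 54.6, 43.3 and 45.4 CPM, also below both Naive libraries, and Mrpl38 was again the sole gene called lower against Naive (-0.50 ± 0.12, adjusted p = 0.00303).

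The 3 Mrps18 genes encode paralogues of a single bacterial protein, of which Mrps18a sits in the large subunit and Mrps18b and Mrps18c in the small subunit, and they moved apart. Mrps18c rose 2.44-fold from Naive to Ag, from 50.3 and 44.3 CPM to 132, 101, 137, 108 and 98.8 CPM (adjusted p = 1.82e-05). Mrps18a rose 1.47-fold, from 58.0 and 53.5 CPM to 88.5, 83.3, 90.9, 70.4 and 77.5 CPM (adjusted p = 0.00149). Mrps18b stood at 50.4 and 48.2 CPM in Naive and at 46.0, 36.6, 47.6, 35.6 and 39.2 CPM in Ag, and its log2 fold change of -0.26 ± 0.15 did not pass the test (adjusted p = 0.157). With the length correction Mrps18b was called lower (-0.57, adjusted p = 0.00553) and Mrps18a was no longer called (0.25, adjusted p = 0.0875), while Mrps18c was still higher (0.97). The Naive levels of Mrps18b and Mrps18c lay close to each other, while in each Ag library Mrps18c was more than 2 times Mrps18b.

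A setting that moved the calls, but the median little, was the choice of Naive library. Leaving out Naive replicate 2 or Naive replicate 1 leaves 1 Naive library, and fewer genes were then called higher. The medians were 0.61 and 0.69, against 0.64 with all libraries. On log2(FPKM + 1) values limma called 41 higher and 1 lower. Shares of all genes called in these fits are not given.

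The comparison of Ag+Costim with Naive gave a like picture at a smaller size. Against Naive, 51 genes rose and 1 fell (background 26.9% and 25.4% of all genes tested), with a median of 0.48 and -0.02 for all genes, and 47 genes rose in both comparisons with Naive. The share of all genes that rose in both is not given, so the count of 47 has no background. The same 2 Naive libraries serve in both, so the comparisons are not independent. Mrps6 (log2 1.53 ± 0.14), Mrpl18 (1.42 ± 0.13), Mrpl27 (1.34 ± 0.15), Mrps22 (1.29 ± 0.22) and Mrpl45 (1.26 ± 0.18) rose most, Mrpl45 being the protein that ties the exit tunnel to the inner membrane. Of the 9 mitochondria-specific small-subunit genes 3 were called higher (median 0.31). Without Naive replicate 2 the count of rises was 32, and it was 33 on log2(FPKM + 1). The 5 genes Mrpl9, Mrpl30, Mrpl47, Mrps10 and Mrps28 passed the test in no comparison as fitted with TMM and no length correction.

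The comparison of Ag+Costim with Ag asks what the agonist antibodies add to antigen. Here the genes split. By edgeR 11 rose and 26 fell, 14.1% and 33.3% of the 78, where 26.6% of all genes rose and 26.5% fell. The median log2 fold change was -0.14, against -0.05 for all genes, and it turned to 0.03 once transcript length was corrected for. The Ag+Costim libraries lay entirely above Ag for 3 genes and entirely below for 19, against 21.3% and 18.5% of all genes. Of the 63 genes higher in Ag than in Naive, 23 fell, 5 rose and 35 did not pass the test between Ag and Ag+Costim. The same Ag libraries serve in both comparisons, so genes picked as high in Ag are more prone to fall.

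Summed over the set, the groups overlapped. The Ag+Costim libraries held 6838, 6330, 6558, 5889 and 6381 CPM against 6530 to 8267 CPM in Ag. By class, 3 rose and 6 fell among 31 large-subunit proteins with a bacterial counterpart (median -0.06), 2 rose and 9 fell among 20 mitochondria-specific large-subunit proteins (median -0.21), 4 rose and 6 fell among 17 small-subunit proteins with a bacterial counterpart (median -0.14), and 2 rose and 5 fell among 9 mitochondria-specific small-subunit proteins (median -0.25). With the length correction the medians of both bacterial-type classes were above 0, at 0.08 and 0.04.

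Mrps21, a small-subunit protein with a bacterial counterpart and the highest FPKM of the set, fell most (ENSMUSG00000054312.6, chr3:95862634-95871519, minus strand). It overlaps no other annotated gene. It stood at 65.7 and 59.7 CPM in Naive, at 156, 129, 193, 164 and 135 CPM in Ag and at 95.8, 79.8, 84.7, 95.1 and 93.4 CPM in Ag+Costim. Ag+Costim lay between the other groups without overlap. From Ag to Ag+Costim Mrps21 fell to 0.578 of its level (log2 -0.79 ± 0.11, adjusted p = 3.85e-05).

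Mrps16 and Mrpl52 followed the same course. Mrps16 went from 75.04 and 62.1 CPM in Naive to 178, 153, 214, 160 and 178 CPM in Ag and 109, 99.0, 104, 123 and 114 CPM in Ag+Costim (log2 from Ag to Ag+Costim -0.69 ± 0.10, adjusted p = 6.67e-05). Mrpl52, a mitochondria-specific protein of the large subunit, went from 49.6 and 39.1 CPM to 89.9, 80.7, 102, 100 and 87.3 CPM and then 64.3, 53.6, 60.1, 56.4 and 54.6 CPM (-0.67 ± 0.09, adjusted p = 4.42e-05). In both genes the highest Ag+Costim library was below the lowest Ag library and the lowest above both Naive libraries. The other 5 named falls were Mrpl48 (-0.62 ± 0.10), Mrpl53 (-0.55 ± 0.13), Mrps14 (-0.54 ± 0.10), Mrps35 (-0.52 ± 0.12) and Mrpl34 (-0.51 ± 0.10). Each of the 8 kept its direction under length correction, and Mrpl53 then missed the threshold (-0.30, adjusted p = 0.056).

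The rises were led by small-subunit genes. Mrps2 lies at chr2:28468066-28471178 on the plus strand (ENSMUSG00000035772.11) and encodes a protein at the back of the small subunit. It stood at 30.5 and 34.3 CPM in Naive, at 30.5, 29.5, 31.9, 31.2 and 36.2 CPM in Ag and at 56.2, 60.3, 50.8, 43.8 and 39.8 CPM in Ag+Costim. Naive and Ag overlapped, and all 5 Ag+Costim libraries were above both. The rise over Ag was 1.58-fold (log2 0.66 ± 0.12, adjusted p = 0.000327), while Ag against Naive gave -0.03 ± 0.15 (adjusted p = 0.911).

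Mrps27, a pentatricopeptide repeat protein of the small subunit, also rose, with 40.6 and 32.2 CPM in Naive, 34.8, 38.0, 32.2, 24.2 and 28.3 CPM in Ag and 47.3, 45.4, 46.5, 38.3 and 40.04 CPM in Ag+Costim (0.47 ± 0.13, adjusted p = 0.0068). Mrpl49 rose in steps, from 43.1 and 41.7 CPM to 65.2, 53.2, 60.2, 54.1 and 61.7 CPM and then 83.3, 68.4, 76.7, 66.6 and 74.6 CPM (0.33 ± 0.09, adjusted p = 0.00548). These 3 were the genes called higher without overlap. With upper-quartile scaling Mrps27 (0.27, adjusted p = 0.0709) and Mrpl49 (0.13, adjusted p = 0.221) were no longer called. Mrps22 had the largest log2 fold change of all (0.68 ± 0.15, adjusted p = 0.00198) but its groups touched, with 32.2, 25.2, 40.7, 21.7 and 31.0 CPM in Ag and 47.4, 53.6, 50.03, 38.3 and 53.0 CPM in Ag+Costim.

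**Figure D3:**
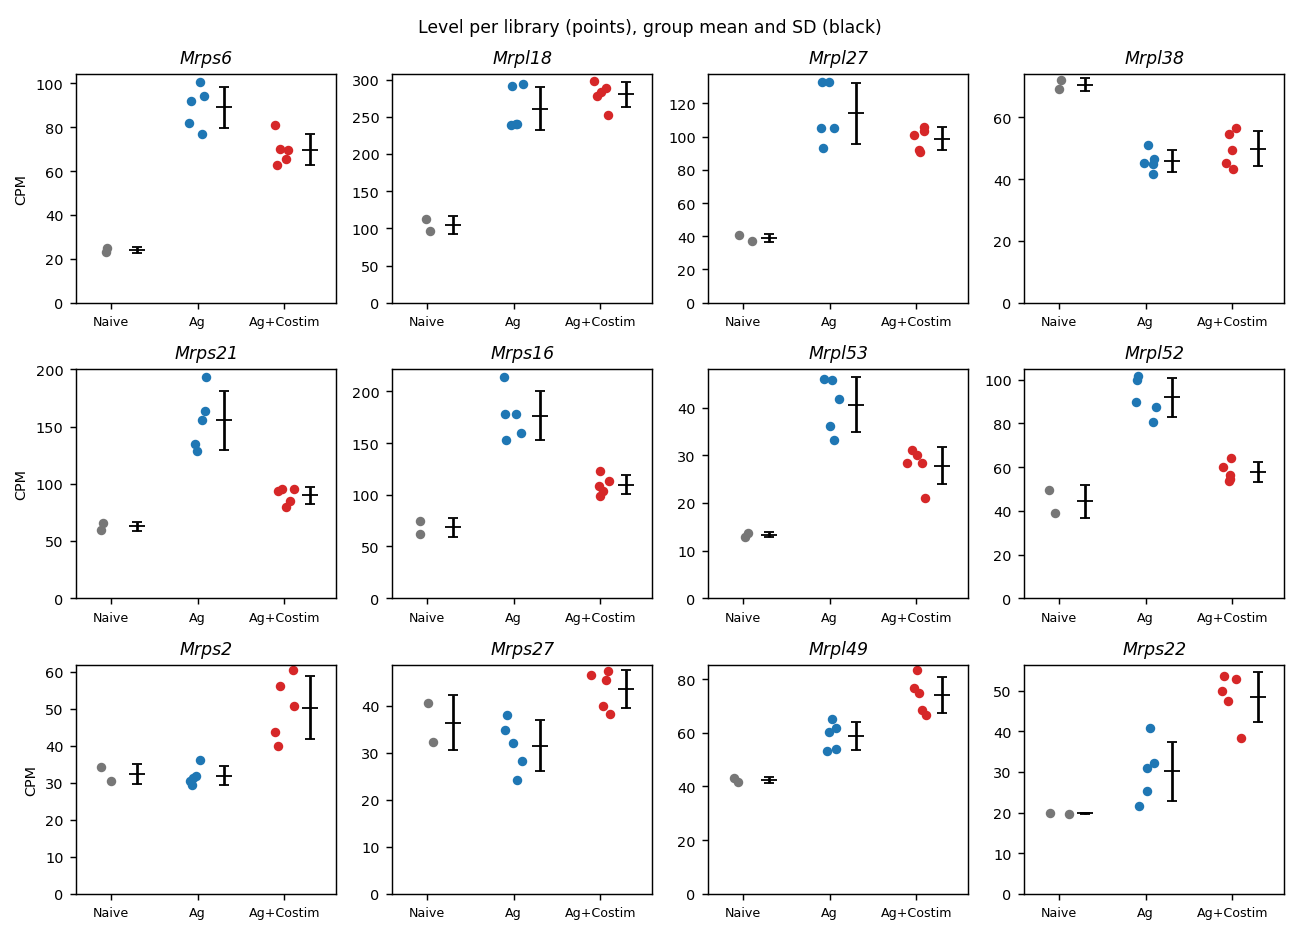
CPM per library (points) for 12 genes in the 3 groups, with the group mean and SD in black and each y axis starting at 0. Mrps6, Mrpl18 and Mrpl27 are raised in both stimulated groups, Mrpl38 is lowered in both, Mrps21, Mrps16, Mrpl53 and Mrpl52 peak in Ag, and Mrps2 and Mrps27 are higher in Ag+Costim than in Ag.

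Members of the stalk were called in both directions, though most of these calls depended on the fit. Mrpl12, the stalk protein that contacts translation factors and is also known to bind the mitochondrial RNA polymerase, rose by 0.39 ± 0.12 from Ag to Ag+Costim (adjusted p = 0.0177), with 133, 114, 139, 117 and 100 CPM against 185, 171, 168, 118 and 148 CPM. Mrpl53 and Mrpl54 fell, by -0.55 ± 0.13 and -0.25 ± 0.09. Mrpl10 (0.12 ± 0.11) and Mrpl11 (-0.05 ± 0.11) did not pass the test. With the length correction Mrpl54 was at -0.00343 (adjusted p = 0.974), Mrpl53 missed the threshold and Mrpl10 was called higher (0.31, adjusted p = 0.0137), and with upper-quartile scaling Mrpl12 lost its call (0.19, adjusted p = 0.217). The Mrps18 genes parted here in the opposite sense to their change from Naive to Ag, in comparisons that share the Ag libraries. Mrps18c fell (-0.37 ± 0.11, adjusted p = 0.0115), Mrps18b rose (0.30 ± 0.11, adjusted p = 0.0355) and Mrps18a did not pass (-0.14 ± 0.09). Mrps18c lost its call with the length correction (-0.12, adjusted p = 0.308) and Mrps18b with upper-quartile scaling (0.10, adjusted p = 0.445). Mrps12, the decoding-site protein (-0.12 ± 0.09), and Mrps36 (-0.23 ± 0.11) did not pass either.

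The balance between the subunits shifted. The summed CPM of large-subunit genes over that of small-subunit genes was 2.09 and 2.11 in Naive, 2.17, 2.19, 2.18, 2.14 and 2.16 in Ag, and 2.32, 2.31, 2.37, 2.35 and 2.34 in Ag+Costim. The Ag+Costim values lay above all others and the 3 groups did not overlap. From summed FPKM the ratio was 2.12 and 2.15 in Naive, 2.14 to 2.20 in Ag and 2.32 to 2.38 in Ag+Costim, so that Naive and Ag overlapped and Ag+Costim again lay above both. Leaving out the pair of small-subunit genes that fell most, chosen after their values were seen, could only shrink the shift between Ag and Ag+Costim. Without Mrps16 and Mrps21 the ratio was 2.30 and 2.32 in Naive, 2.53 to 2.58 in Ag and 2.55 to 2.68 in Ag+Costim. On that count Ag and Ag+Costim overlapped, with means of 2.55 and 2.61, and both lay above Naive.

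Transcript length moved with the size of the change. Over the 78 genes, Spearman's rho between the log2 fold change and annotated transcript length (median 1051.5 bases) was -0.26 for Ag against Naive and 0.31 for Ag+Costim against Ag, and over all 18817 genes it was -0.24 and 0.21. The points are genes of the same libraries and are not independent. The 39 shorter genes had medians of 0.80 and -0.22 in these comparisons, and the 39 longer ones 0.50 and -0.04. From Ag to Ag+Costim, 1 shorter and 10 longer genes rose, and 17 shorter and 9 longer genes fell. When a spline of length was fitted to each library as an offset, Ag against Naive gave 49 rises and 3 falls (median 0.49), of which 48 rises and the fall of Mrpl38 were called without it too. The other 2 falls were Mrps18b and Mrps27. Shares of all genes called with this offset are not given. With the same offset Ag+Costim against Ag gave 19 rises and 20 falls with a median of 0.03. The fall of the set from Ag to Ag+Costim thus has no direction that holds under both fits, and its rise from Naive does.

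**Figure D4:**
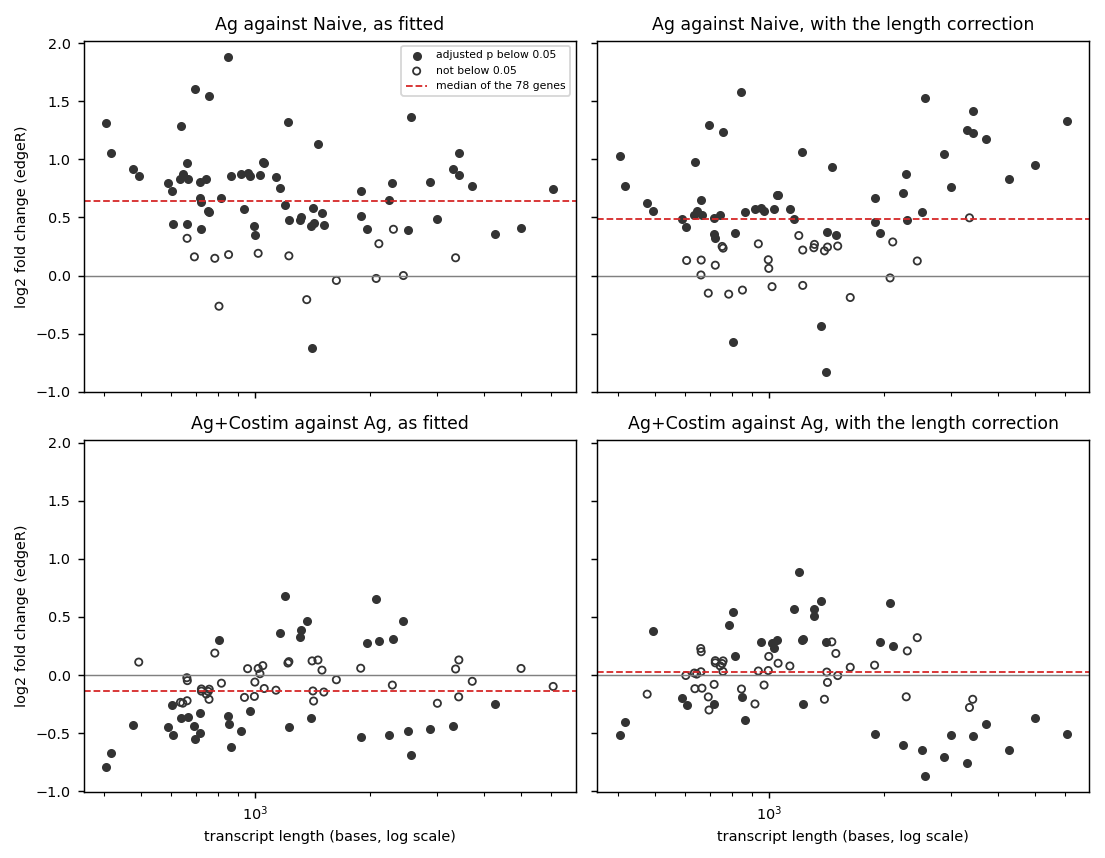
Log2 fold change (y axis) against annotated transcript length on a log scale (x axis) for the 78 genes, for Ag against Naive (top) and Ag+Costim against Ag (bottom), as fitted (left) and with the length correction (right). Filled points passed an adjusted p of 0.05 and the dashed red line is the median of the 78 genes, which in the lower panels moves from -0.14 to 0.03.

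Scaling moved the whole comparison as well. With upper-quartile scaling in place of TMM, the median of all genes from Ag to Ag+Costim went from -0.05 to -0.24 and that of the 78 from -0.14 to -0.33, so that 2 rose and 48 fell. Relative to the median of all genes the set differed by -0.09 under either scaling. Some calls held under all 3 fits. Called the same way as fitted, with the length correction and with upper-quartile scaling were 15 falls, led by Mrps21, Mrps16, Mrpl52, Mrpl48, Mrps14 and Mrps35, and 2 rises, Mrps2 and Mrps22. The 15 falls include Mrps26, whose coding transcripts alone were higher in Ag+Costim, as given below. In the comparison of Ag with Naive 48 rises and the fall of Mrpl38 held under all 3. The shares of all genes called with upper-quartile scaling or under all 3 fits are not given, so these counts have no background. As fitted alone, 26.6% of all genes rose and 26.5% fell from Ag to Ag+Costim.

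Genes whose promoter window holds the ETS element had medians further from 0 than the others in Ag against Naive and in Ag+Costim against Ag, but not in Ag+Costim against Naive. The difference was not tested, and both of the former comparisons use the same Ag libraries. The 26 genes with the element had a median of 0.82 from Naive to Ag (23 rose) and -0.33 from Ag to Ag+Costim (15 fell, 4 rose). The 43 without it had medians of 0.55 (33 rose) and -0.09 (8 fell, 7 rose). The genes with the element had shorter transcripts, with a median of 779.5 against 1226 bases, and after length correction the medians were 0.55 against 0.37 and -0.14 against 0.04. From Naive to Ag+Costim the medians were 0.48 with the element and 0.57 without it (0.42 against 0.53 after length correction). For YY1 and NRF1 the order from Naive to Ag was the reverse, with medians of 0.51 with YY1 and 0.74 without, and of 0.48 with NRF1 and 0.70 without. Gabpa encodes the DNA-binding part of the ETS factor GABP. It stood at 27.8 ± 1.69 CPM in Naive (SD, n = 2), 44.3 ± 3.35 in Ag and 68.1 ± 9.25 in Ag+Costim (n = 5 each). The log2 fold changes of Nrf1 were -0.007 ± 0.13 (SE) from Naive to Ag and 0.70 ± 0.10 from Ag to Ag+Costim. Those of Yy1 were -0.13 ± 0.14 and -0.27 ± 0.11. Whether the levels of these factors bear on the genes with each element was not tested.

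Other genes of the pathway, from lists drawn up for this purpose, did not all take the same course. Of 5 mitochondrial ribosomal proteins that lack the Mrpl or Mrps prefix, 3 rose from Naive to Ag, with Aurkaip1 (0.97 ± 0.11) and the GTP-binding protein Dap3 (0.84 ± 0.12) ahead, and from Ag to Ag+Costim 1 rose (Ptcd3, 0.70 ± 0.12) and 3 fell. Among 13 translation factors 8 rose and none fell from Naive to Ag, and 4 rose and 4 fell from Ag to Ag+Costim. The elongation factor Gfm1 rose in the latter (0.96 ± 0.13, adjusted p = 2.98e-05) and the initiation factor Mtif3 fell (-0.84 ± 0.10, adjusted p = 9.01e-06).

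The factors that assemble the ribosome and modify its RNA were spread in both directions. Of 26, 5 rose and 4 fell from Naive to Ag, and 8 rose and 11 fell from Ag to Ag+Costim. The RNA helicase Dhx30 fell by -1.12 ± 0.10 and then rose by 0.95 ± 0.08, and the rRNA methyltransferase Mrm1 fell from 68.9 ± 6.95 CPM in Naive to 26.3 ± 2.69 in Ag. Of 19 factors for mitochondrial DNA and RNA, 6 rose and 6 fell from Naive to Ag, and 8 rose and 7 fell from Ag to Ag+Costim. Polrmt, the mitochondrial RNA polymerase, fell from 72.6 ± 1.54 CPM in Naive to 21.5 ± 5.06 in Ag and stood at 71.1 ± 6.83 in Ag+Costim, and the RNA-binding protein Lrpprc went from 83.3 ± 4.78 to 30.2 ± 2.59 and 102 ± 18.6 CPM.

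Nuclear regulators of mitochondrial genes parted from the ribosomal proteins most clearly. Pprc1, a coactivator of the PGC-1 family, stood at 90.2 ± 2.62 CPM in Naive, 11.8 ± 1.08 in Ag and 79.1 ± 21.4 in Ag+Costim, with log2 fold changes of -2.94 ± 0.19 (adjusted p = 1.54e-07) and 2.75 ± 0.17 (adjusted p = 3.86e-08). Ppargc1b followed the same course at a lower level, with 22.7 ± 2.23, 2.84 ± 0.663 and 7.22 ± 0.613 CPM. Of the 9 regulators 1 rose and 4 fell from Naive to Ag, and 6 rose and none fell from Ag to Ag+Costim.

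The mRNAs that the mitochondrial ribosome translates were not called higher. From Naive to Ag their log2 fold changes had a median of -0.13 and SEs of 0.30 to 0.38, with mt-Co1 at 0.52 ± 0.32. With such SEs a rise like that of the ribosomal protein genes could go uncalled. Of 13 mitochondrially encoded mRNAs none rose and 2 fell from Naive to Ag, and none rose and 6 fell from Ag to Ag+Costim (median -0.54), with mt-Co1 falling by -1.38 ± 0.24 (adjusted p = 0.000276). Their sum was 8762 and 10546 CPM in Naive, 10951, 8006, 7728, 18558 and 6383 CPM in Ag and 5816, 5037, 5288, 7206 and 6115 CPM in Ag+Costim. Ag replicate 4, the shallowest library, held the highest value. Without that library the nuclear genes gave 65 rises from Naive to Ag and 9 rises and 30 falls from Ag to Ag+Costim. Shares of all genes called without it are not given.

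Cytosolic ribosomal proteins served as the nearest comparison. Of 80 such genes 78 were tested, and 16 rose and none fell from Naive to Ag (20.5% against 80.8% of the mitochondrial set), with a median of 0.22 that turned to -0.06 under length correction. From Ag to Ag+Costim none rose and 43 fell (median -0.33). The summed cytosolic level of 34163 and 30312 CPM in Naive overlapped that of Ag (30129 to 42275 CPM), whereas the summed mitochondrial level did not. The difference between the sets was not tested, since their genes are not replicates. Of 23 tested translocase subunits, which import the ribosomal proteins, 12 rose and 1 fell from Naive to Ag, and 5 rose and 7 fell from Ag to Ag+Costim.

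The make-up of the transcripts changed along with their number. For 68 of the 78 genes the annotation lists both coding and non-coding transcripts and the files hold at least 100 transcript counts on average. The share of a gene's counts in its non-coding transcripts (retained introns, targets of nonsense-mediated decay and other processed transcripts) had a median over these genes of 7.58% and 6.56% in the Naive libraries, 2.03% to 3.66% in Ag and 2.30% to 3.77% in Ag+Costim. By limma on the shares over 8188 genes, 28 of the 68 fell and none rose from Naive to Ag, where 19.4% of all genes fell. From Naive to Ag+Costim 29 fell and none rose (29.6% of all genes fell). The median differences were -3.11 and -3.03 percentage points, against -0.72 and -1.64 over all genes. Retained-intron transcripts took 11.1% of the counts of these genes in Naive, 6.84% in Ag and 5.35% in Ag+Costim.

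Mrps2 changed most from Naive to Ag, with a non-coding share of 86.0% and 51.3% in Naive, 44.2%, 15.2%, 14.2%, 11.3% and 4.72% in Ag and 59.2%, 33.9%, 24.8%, 6.75% and 7.57% in Ag+Costim. The Ag libraries were all below Naive and 1 Ag+Costim library was not (adjusted p = 0.0375 for Ag against Naive, by limma). Mrps2, whose summed level did not pass the test between Naive and Ag, had coding transcripts at 10.5 ± 8.79 CPM in Naive and 26.3 ± 6.29 CPM in Ag. Mrpl3, a core protein of the large subunit, held 53.8% and 49.7% in Naive and 41.6%, 0.528%, 0.366%, 2.03% and 0.458% in Ag (adjusted p = 0.0299), so that 1 Ag library stood near Naive and 4 near 0. Mrps24 followed, at 38.3% and 36.3% in Naive and 8.15%, 14.4%, 15.3%, 22.8% and 3.48% in Ag (adjusted p = 0.0416). These shares are estimates from reads that largely fit several transcripts, and the spread within groups was wide.

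Tighter within groups were Mrpl53 and Mrps26. In Mrpl53 a retained-intron transcript held 57.4% and 51.9% of the counts in Naive, 26.7%, 30.3%, 30.3%, 31.1% and 33.4% in Ag and 23.5%, 18.9%, 20.1%, 22.4% and 21.8% in Ag+Costim. In Mrps26 the non-coding share was 66.0% and 65.7% in Naive, 67.3%, 71.1%, 65.2%, 73.5% and 64.9% in Ag and 34.5%, 50.6%, 47.7%, 46.8% and 36.4% in Ag+Costim. The groups did not overlap in Mrpl53, and in Mrps26 only Ag+Costim stood apart. Both genes were chosen for these values after they were seen. The summed level of Mrps26 was lower with costimulation than with antigen alone (log2 fold change -0.25), but its protein-coding part was higher. Mean coding CPM of Mrps26 was 68.3 ± 12.4 with costimulation (SD, n = 5), against 44.7 ± 5.67 with antigen alone (n = 5). For Mrpl53 the coding part fell as well, with means of 21.9 ± 3.27 and 28.4 ± 4.71 in the same order. Differences in coding level were not tested. Between Ag and Ag+Costim, the exact permutation test (252 arrangements, smallest p 0.00794) called none of the 68 genes once adjusted over 8145 genes, where the smallest adjusted p that it gave was 0.0561. Unadjusted, 15 of the 68 had p below 0.05, as did 26.5% of all genes, and limma called 3 of the 68, namely Mrps26 (-25.2 ± 4.31 points, adjusted p = 0.00709), Mrpl53 (-8.99 ± 2.34 points, adjusted p = 0.0391) and Mrpl24 (1.81 ± 0.471 points, adjusted p = 0.0402).

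**Figure D5:**
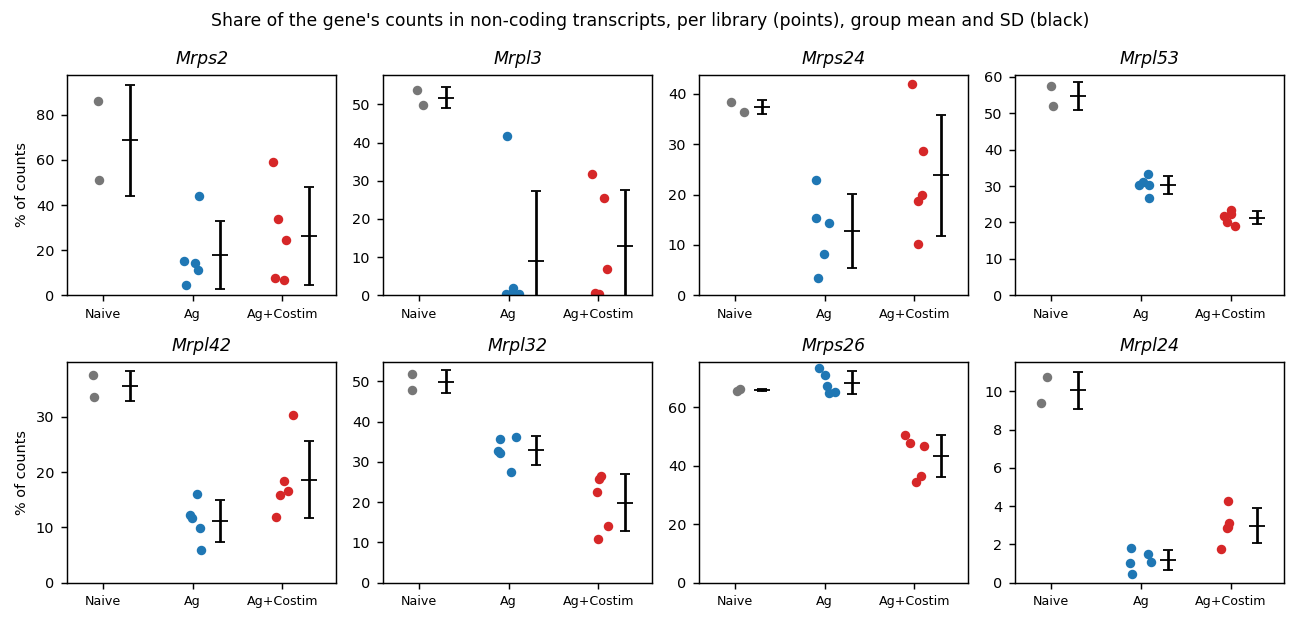
Percent of a gene's transcript counts in non-coding transcripts (y axis, from 0) per library (points) in the 3 groups for 8 genes, with the group mean and SD in black (SD bars are clipped at 0). Mrpl53, Mrpl32 and Mrpl24 are high in both Naive libraries and lower in every stimulated library, Mrps26 is lower in Ag+Costim alone, and Mrps2 and Mrpl3 vary widely within the stimulated groups.

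Exon usage gave a further view, with 1 value per group and so no test. Percent spliced in (Psi) values for Ag and Ag+Costim covered 389 nodes (segments of the gene model) in 72 of the genes. None of the 251 core exons differed by more than 0.1 between the groups, against 2.03% of core exons over all genes. Differences above 0.1 were found in 12 of 54 alternative start segments and 7 of 53 alternative end segments, against 26.2% and 29.9% of such segments over all genes. The end segment of Mrpl2 at chr17:46649884-46650131 (mm10) went from 0.997 in Ag to 0.593 in Ag+Costim. The start segment of Mrps36 at chr13:100744530-100744657 went from 0.377 to 0.0805, and that of Mrps18c at chr5:100798627-100798736 from 0.813 to 0.643. Each of these segments adjoins a much shorter one that moved the other way. These were chr17:46650132-46650132 in Mrpl2 (0.00289 to 0.348), chr13:100744658-100744659 in Mrps36 (0.623 to 0.919) and chr5:100798737-100798746 in Mrps18c (0.181 to 0.332).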

How the data were processed

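Poly(A) RNA of 12 libraries (5 Ag, 5 Ag+Costim, 2 Naive) was amplified with a kit that does not mark strand and sequenced as single reads of 100 bases. Per the labels and the study's methods, the authors aligned to mm10 with HISAT2 2.1.0 (SAMtools 1.9) and quantified with StringTie 2.1.0. The deposited gene and transcript counts are whole numbers derived from StringTie's coverage and were not normalized by the authors. They summed to 1.20 to 1.43 times the aligned reads of a library. The authors also deposited FPKM per library, Psi, the fraction of transcripts that include a segment (by Whippet, 1 value per group) and per library the reads in counts and the percent aligned. The authors' own comparison columns (difference and probability of Psi) were not used.

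The 26345 assembled loci with no annotated gene, 0.0508% to 0.121% of a library's counts, were left out. Gene counts were tested with edgeR 4.0.16 (R 4.3.3): TMM, filterByExpr, robust quasi-likelihood fit over all 12 libraries, group as the term, Benjamini-Hochberg over 18817 genes. All 78 members passed the filter. Log2 fold changes have standard errors from the F statistic, and CPM use TMM library sizes. Symbols, positions, overlaps and lengths (median coding transcript) came from GENCODE vM21. Shares of non-coding transcripts were compared by an exact two-sided permutation test (Ag+Costim against Ag) and, chosen after seeing the data, limma 3.58.1 (against Naive). Scripts were tested on simulated data.

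Named genes were the called members with the largest changes and no overlap between libraries (up to 8 rises and 8 falls for Ag+Costim against Ag, 5 and 5 otherwise), 10 members taken by role (the Mrps18 genes, Mrpl10, Mrpl11, Mrpl12, Mrpl53, Mrpl54, Mrps12 and Mrps36), the 3 highest and 3 lowest by FPKM, up to 2 rises and 2 falls per list, and the 3 largest differences in isoform share. Other genes are named where the text singles them out, after their values were seen. The members and lists were chosen with earlier results of these data known. Alternatives were upper-quartile scaling, DESeq2 1.42.0, no count filter, the 2 groups alone, a replicate block, a length spline, isoform minimums of 20 and 500 counts, limma on log2(FPKM + 1) and leaving out each library. Counting intervals are not given because counts derive from coverage. With 50-base words, 5 members (Mrpl22, Mrpl23, Mrpl27, Mrps18b and Mrps36) shared over 20% of their coding transcript with another locus, mostly pseudogenes, and 42 lay across a further annotated gene (13 sharing its strand).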

Additional observations from a re-analysis of the deposited data

Results flagged for a closer look

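Among the named genes and the summed levels, 66 groups of 5 libraries were searched for a library far from its group, and 2 were found, in a search where chance gives about 1 in 20. Both were Ag+Costim replicate 4 at the low end. Mrpl1, the protein of the L1 stalk, stood at 40.7 CPM in that library, and the other 4 Ag+Costim libraries ran from 50.1 to 52.8 CPM. Mrpl53 stood at 21.1 CPM there against 28.4 to 31.2 CPM in the others.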

How the results depend on the processing

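The 3 comparisons were recomputed under each alternative. Shares of all genes called under the alternatives are not given, so the counts below have no background. Of 1292 values for named genes 1195 kept their direction and side of the threshold, as did 924 of 1026 medians of gene lists (within the spread between libraries). Leaving out each library in turn gave 41 to 65 rises from Naive to Ag, 32 to 55 from Naive to Ag+Costim (1 to 3 falls), 18 to 26 falls in isoform share from Naive to Ag, and, from Ag to Ag+Costim, 8 to 11 rises and 23 to 30 falls. With all libraries there were 63 and 51 rises in the comparisons with Naive, and 28 falls in isoform share from Naive to Ag. All of these were lowest without Naive replicate 2, which leaves 1 Naive library. Without Ag replicate 3, Ag replicate 4 or Ag+Costim replicate 1 the falls from Naive to Ag+Costim numbered up to 3. The falls against Naive in Ag+Costim numbered 3 with the 2 groups alone, 3 by DESeq2, 4 with the length correction, 5 with upper-quartile scaling and 6 on log2(FPKM + 1), against 1 as fitted.

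With the length correction Ag+Costim against Ag gave 19 rises and a median of 0.0274, Ag against Naive 3 falls. Signs turned from Ag to Ag+Costim for Mrpl1 (-0.208), Mrpl11 (0.201), Mrpl42 (0.229), Mrpl47 (-0.279), Mrps12 (0.124), Mrps18a (0.0995) and Mrps36 (0.0173), none of them called, and for the medians of the large subunit (0.0318; bacterial counterpart 0.0793), the small subunit (0.011; bacterial counterpart 0.0391), the stalk (0.201) and the central protuberance (0.1002). Assembly factors turned to -0.0453 (Ag against Naive) and -0.00502 (Ag+Costim against Naive), cytosolic ribosomal proteins to -0.0619 (Ag against Naive) and Mrps18b to -0.0294 (Ag+Costim against Naive).

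On log2(FPKM + 1) the rises against Naive numbered 41 in Ag (median 0.408) and 33 in Ag+Costim (median 0.255). Mrpl47 turned to -0.154 and -0.125 in these, assembly factors to -0.0959 and -0.276, Mrps18b to -0.0422 and the exit tunnel to -0.063 in Ag+Costim, and translation factors to -0.000367 from Ag to Ag+Costim. With upper-quartile scaling there were 2 rises and 48 falls from Ag to Ag+Costim, and Mrpl1 (-0.0678), Mrpl10 (-0.0786), Mrpl47 (-0.146), translation factors (-0.162) and DNA and RNA factors (-0.0692) turned. Against Naive the median in Ag+Costim was 0.324, Mrps18b turned to -0.115, assembly factors to -0.109 and DNA and RNA factors, in Ag, to 0.00949. Among the 36 members that overlap no other gene, an alternative chosen after seeing the data, 28 rose from Naive to Ag, 23 from Naive to Ag+Costim, and 4 rose and 13 fell from Ag to Ag+Costim, fewer genes being tested.

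Leaving out 1 library turned these values, from Ag to Ag+Costim: Mrpl11 (-0.0984 to 0.0214, as did the stalk), Mrpl42 (-0.0851 to 0.0746), Mrpl47 (-0.00942 to 0.149), Mrps25 (-0.181 to 0.0127), translation factors (-0.00977 to 0.109) and assembly factors (-0.065 to 0.0166). From Naive to Ag they were Mrpl47 (-0.114 to 0.476), mitochondrially encoded mRNAs (-0.471 to 0.00922), assembly factors (-0.00582 to 0.106) and DNA and RNA factors (-0.137 to 0.038), and from Naive to Ag+Costim Mrps18b (-0.0105 to 0.105), Mrpl47 (-0.0682 to 0.522), assembly factors (-0.00459 to 0.0955) and DNA and RNA factors (-0.0652 to 0.00953).

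Whether replicate numbers pair the libraries is not settled: deviations of same-numbered libraries correlated at -0.0644 to 0.0951. Between Ag and Ag+Costim these correlations were all positive but weak (0.0159 to 0.0951), and 3 of 5 Ag libraries correlated best with their own number. With the replicate block 62 genes rose from Naive to Ag, 58 from Naive to Ag+Costim, and 11 rose and 27 fell from Ag to Ag+Costim, and the median of DNA and RNA factors against Naive turned to 0.00522 in Ag+Costim. For isoform shares with the replicate block limma called 18 falls from Naive to Ag, and 1 gene from Ag to Ag+Costim, where limma without it called 3 and the exact test 0. The cause of these changes was not tested. With 2 Naive libraries the comparisons with Naive rest on few samples, and p-values measure the spread between these libraries only.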
